A study of Drosophila melanogaster with 16 samples.

Results

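The 6 salivary glue protein genes Sgs1, Sgs3, Sgs4, Sgs5, Sgs7 and Sgs8 were followed in whole Drosophila melanogaster larvae of the third instar with an extra chromosome arm 2L or an extra X, with and without over-expressed MSL2. They were chosen by gene name, and all 6 were found, each as 1 transcript row, among 15953 named genes in the table of trisomy 2L and among 13861 in the table of metafemales. MSL2 is the protein that limits assembly of the male specific lethal (MSL) complex, which binds the single X of males and acetylates its histone H4, and females normally do not make it.

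The tables gave 1 mean per group, which the authors made from the libraries after adjusting CPM values (the reads of a transcript scaled to the mapped reads of its library) for sequencing batch. No value of a single library was used here, so no value below has an error or a test, and a difference of group means was called only when it was at least 2-fold. The table of trisomy 2L held MSL2-trisomy 2L females and trisomy 2L females (XX,AAA), MSL2-trisomy 2L males and trisomy 2L males (XY,AAA), and normal diploid females and males. The table of metafemales held MSL2-metafemales and metafemales (XXX,AA) with another pair of diploid means. For every trisomy 2L group the labels list 3 libraries, and for both metafemale groups 2, all from stocks kept at 25 °C. In the genotypes of the labels, AAA stands for trisomy of arm 2L alone.

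The crosses limit what the groups model. The trisomy 2L larvae came from mothers with a compound 2L chromosome and the metafemales from mothers with a compound X, whereas the diploids were the Canton S stock. The fathers were Canton S in the crosses without MSL2 and males homozygous for an MSL2 transgene on arm 2R in the crosses with it, so MSL2 and the paternal background cannot be told apart. Each library pooled whole larvae, and the labels give their age only as the third instar. The diploids were sequenced with single-end reads and the MSL2 groups with paired-end reads, so any difference between an MSL2 group and a diploid cannot be told apart from the batch that the authors adjusted for. Trisomy 2L and metafemale libraries without MSL2 were sequenced in both ways, and which of them entered each mean is not given in the sources used here.

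Glue proteins are made in the larval salivary glands during the last part of larval life, stored in secretory granules and expelled at pupariation to stick the puparium to its surface. Their genes lie in some of the classical intermoult puffs of the polytene chromosomes. The steroid hormone ecdysone first brings these genes on in the course of the third instar, and the higher titre before pupariation shuts them off while early and late puff genes come on. Their RNA is therefore known as a marker of how far a larva has come within the third instar.

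By the Ensembl annotation of the assembly that the authors mapped to (release 6 of the genome), the members lie on 4 chromosome arms. Sgs1, which encodes the largest of these proteins with 1286 residues, lies on arm 2L at 4937409 to 4941423 on the plus strand, so that trisomy 2L larvae carry 3 copies. Sgs4, a mucin-like glue protein of 287 residues, lies on the X at 3250089 to 3251040 on the plus strand, inside the span of the gene dnc on the same strand. Sgs4 is thus present in 3 copies in metafemales, 2 in trisomy 2L females and 1 in males. Sgs3, a mucin-like protein of 307 residues, Sgs7 (74 residues) and Sgs8 (75 residues) form the cluster of the 68C puff on arm 3L, at 11512221 to 11513402, 11509861 to 11510247 and 11508967 to 11509394. Sgs7 and Sgs8 are related small proteins and are transcribed away from each other across 466 bases. Sgs5, of 163 residues, lies on arm 3R at 17595362 to 17596112 on the plus strand. Each gene has 1 annotated transcript, whose exons sum to between 321 bases for Sgs7 and 3950 bases for Sgs1, and Sgs4 alone has no intron. Reads of the related pair Sgs7 and Sgs8 could be shared between them, and how the counting treated such reads is not given in the sources used here.

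The msl-2 RNA was first compared as a check of the labels. It was 177 CPM in MSL2-trisomy 2L females, against 20.1 in trisomy 2L females, and 266 in the males with MSL2, against 52.8 in trisomy 2L males. It was 95.3 CPM in MSL2-metafemales against 8.31 in metafemales. It was thus higher in every MSL2 group than in the same aneuploid without MSL2. The RNA roX1, a noncoding part of the MSL complex, was 23.4 CPM in MSL2-trisomy 2L females and 15.9 in trisomy 2L females, and 7.15 in MSL2-metafemales against 11.6 in metafemales, and it was 119 to 566 CPM in the male means of both tables. The related roX2 was below 1 CPM in every female mean, at most 0.721, and between 5.01 and 47.8 CPM in the male means.

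Normal diploids of both sexes expressed the glue genes among the most abundant RNAs of the larva. In the table of trisomy 2L, Sgs5 stood at 8373 CPM in diploid males and 8604 in diploid females, Sgs7 at 7147 and 7477, and Sgs3 at 6509 and 6745. Sgs8 stood at 3172 CPM in diploid males and 2950 in diploid females, Sgs4 at 1299 and 1487, and Sgs1 at 840 and 1026. Sgs5 ranked 4th and 6th of all genes in these columns. In the table of metafemales, Sgs7 was 22895 CPM in diploid males and 13550 in diploid females, Sgs5 was 18910 and 15217, and Sgs8 was 8722 and 4896. There Sgs3 was 5498 CPM in diploid males and 5550 in diploid females, Sgs4 was 971 and 1407, and Sgs1 was 931 and 541. Sgs7 ranked 1st of the 13510 genes with a value in the diploid males of that table. The 6 genes summed to between 3.05% and 6.34% of the column total in the 4 diploid means.

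The 2 diploid means of each sex, which are in tables adjusted separately, show how far means of the same stock lay apart. From the table of trisomy 2L to that of metafemales, the diploid female level differed by 1.06-fold for Sgs4 to 1.90-fold for Sgs1, and the diploid male level by 1.11-fold for Sgs1 to 3.20-fold for Sgs7. No member differed by at least 2-fold between the female means, where 32.2% of 12722 genes did, and 3 members (Sgs5, Sgs7 and Sgs8) did so between the male means, where 32.1% of 13235 genes did. Means of the same stock thus differed by up to 3.20-fold for a member. All comparisons below stay within 1 table.

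Sgs1 showed the largest fold range of the members, from lowest to highest mean, within each table. It was 4.07 CPM in MSL2-trisomy 2L females, against 572 in trisomy 2L females and 1026 in diploid females, against 298 in MSL2-trisomy 2L males, 406 in trisomy 2L males and 840 in diploid males. In the table of metafemales it was 5.12 CPM in MSL2-metafemales, 18.7 in metafemales and 541 in diploid females. In each table the lowest Sgs1 mean was that of the female MSL2 group, and the 3 male means of the table of trisomy 2L stayed within 298 to 840 CPM.

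Sgs3 was 179 CPM in MSL2-trisomy 2L females, against 2319 in trisomy 2L females and 6745 in diploid females, and it was 3493 in MSL2-trisomy 2L males, 2425 in trisomy 2L males and 6509 in diploid males. In the other table it was 550 CPM in MSL2-metafemales and 1405 in metafemales. Its neighbour Sgs7 was 150 CPM in MSL2-trisomy 2L females, against 2099 in trisomy 2L females and 7477 in diploid females, and it was 3072 in MSL2-trisomy 2L males, 2038 in trisomy 2L males and 7147 in diploid males. Sgs7 was 356 CPM in MSL2-metafemales and 793 in metafemales. For both genes the MSL2-trisomy 2L female mean was the lowest of the 6 in its table, and the MSL2-metafemale mean the lowest of the 4 in the other.

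Sgs8 was 33.9 CPM in MSL2-trisomy 2L females, against 508 in trisomy 2L females and 2950 in diploid females, with 964 in MSL2-trisomy 2L males and 561 in trisomy 2L males. It was 70.9 CPM in MSL2-metafemales and 147 in metafemales. Sgs5 was 189 CPM in MSL2-trisomy 2L females, against 2130 in trisomy 2L females and 8604 in diploid females, with 2714 in MSL2-trisomy 2L males and 2419 in trisomy 2L males. It was 286 CPM in MSL2-metafemales and 1044 in metafemales. Both genes again had their lowest mean of each table in the female MSL2 group.

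Sgs4 kept the narrowest fold range within each table. It was 235 CPM in MSL2-trisomy 2L females, against 400 in trisomy 2L females and 1487 in diploid females, and it was 553 in MSL2-trisomy 2L males, 335 in trisomy 2L males and 1299 in diploid males. In the table of metafemales it was 824 CPM in MSL2-metafemales, 511 in metafemales and 1407 in diploid females. In contrast to the other members, its MSL2-metafemale mean was above its metafemale mean.

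**Figure D1:**
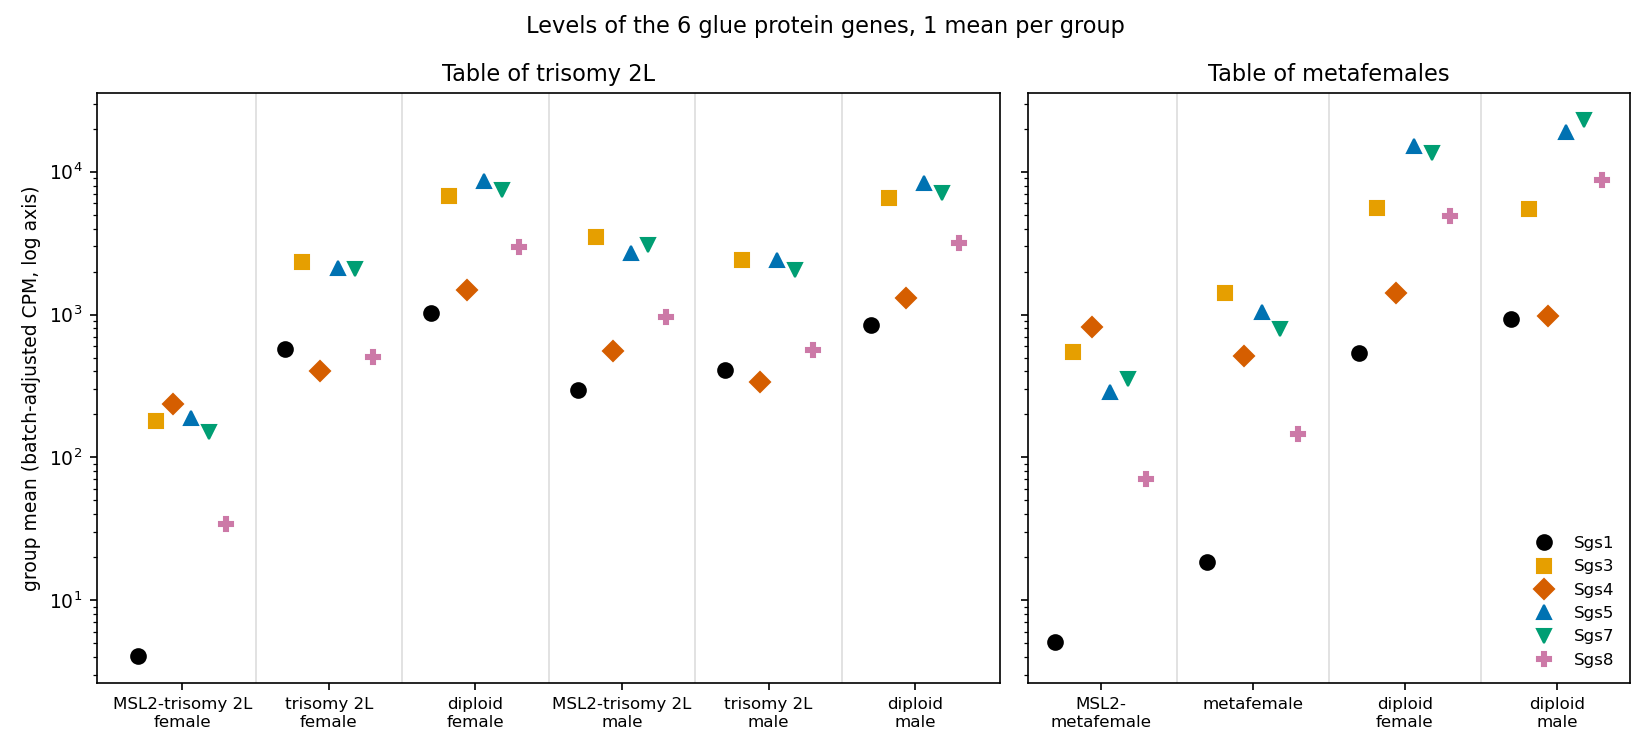
Mean level of each glue protein gene in each group, as batch-adjusted CPM on a log axis, with 1 point per gene and group mean and no error bars, since each table gives 1 mean per group. Sgs1 lies at 4.07 CPM in MSL2-trisomy 2L females and at 5.12 in MSL2-metafemales, while Sgs4 lies between 235 and 1487 CPM in all 10 means.

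Levels were compared between genes per kilobase of exon. In diploid females of the table of trisomy 2L the order was Sgs7 with 23293 CPM per kb, Sgs5 with 13529, Sgs8 with 8217, Sgs3 with 6082, Sgs4 with 1562 and Sgs1 with 260. In MSL2-trisomy 2L females it was Sgs7 with 468 CPM per kb, Sgs5 with 297, Sgs4 with 247, Sgs3 with 161, Sgs8 with 94.4 and Sgs1 with 1.03. In MSL2-metafemales Sgs7 led with 1109 CPM per kb, followed by Sgs4 with 865, Sgs3 with 496, Sgs5 with 450, Sgs8 with 198 and Sgs1 with 1.30. Sgs7 was thus first and Sgs1 last in these 3 groups. In the table of trisomy 2L, Sgs4 was in place 5 in diploid females and trisomy 2L females and in place 3 in MSL2-trisomy 2L females. In the table of metafemales, it was in place 5 in diploid females, 4 in metafemales and 2 in MSL2-metafemales. Without a spread over libraries it could not be said which neighbours in these orders differ.

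MSL2 in trisomy 2L females was the comparison with the lowest glue gene ratios among the 3 that set an MSL2 group against its own aneuploid. The sum of the 6 genes was 791 CPM in MSL2-trisomy 2L females against 8029 in trisomy 2L females, which is 10.2-fold lower. Sgs1 was 141-fold lower, Sgs8 15.0-fold, Sgs7 14.0-fold, Sgs3 13.0-fold and Sgs5 11.3-fold, and Sgs4 was 1.70-fold lower. On the log2 scale these ratios of means were -7.14, -3.91, -3.80, -3.70, -3.50 and -0.77, with a median of -3.75 over the 6 genes, beside a median of -0.12 over 12404 genes. At least 2-fold lower were 5 of the 6 members, beside 11.2% of all genes. Only 6 of the 12404 genes had a lower ratio than Sgs1, and 93 had a lower ratio than Sgs5. These ranks cover only genes with both means, so a gene without a value in MSL2-trisomy 2L females is not counted. A value was listed for 12500 genes in MSL2-trisomy 2L females and for 14815 in trisomy 2L females. Sgs4 was below the median X gene of this comparison, whose log2 ratio was -0.01 over 2030 genes.

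In trisomy 2L males with MSL2 no member passed the 2-fold limit. The sum was 11093 CPM in MSL2-trisomy 2L males and 8184 in trisomy 2L males, which is 1.36-fold higher. The log2 ratios were -0.45 for Sgs1, 0.53 for Sgs3, 0.72 for Sgs4, 0.17 for Sgs5, 0.59 for Sgs7 and 0.78 for Sgs8, with a median of 0.56 beside 0.03 over 15227 genes. Of these genes, 11.3% passed 2-fold in either direction. Thus 5 of the 6 members were above 0 in males, whereas all 6 were below 0 in females, and this difference between the sexes could not be tested.

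In metafemales with MSL2, 5 of the 6 members were again at least 2-fold lower, beside 7.75% of 11841 genes. Sgs5 was 3.65-fold lower, Sgs1 3.64-fold, Sgs3 2.55-fold, Sgs7 2.23-fold and Sgs8 2.07-fold. Sgs4 was 1.61-fold higher, with a log2 ratio of 0.69 beside a median of -0.08 over 1994 X genes. The median log2 ratio of the 6 genes was -1.25, beside -0.09 over all genes, and the sum was 2092 CPM in MSL2-metafemales against 3918 in metafemales. The Sgs8 ratio lay just past the limit, and with ratios divided by the median of all genes its log2 value was -0.95.

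**Figure D2:**
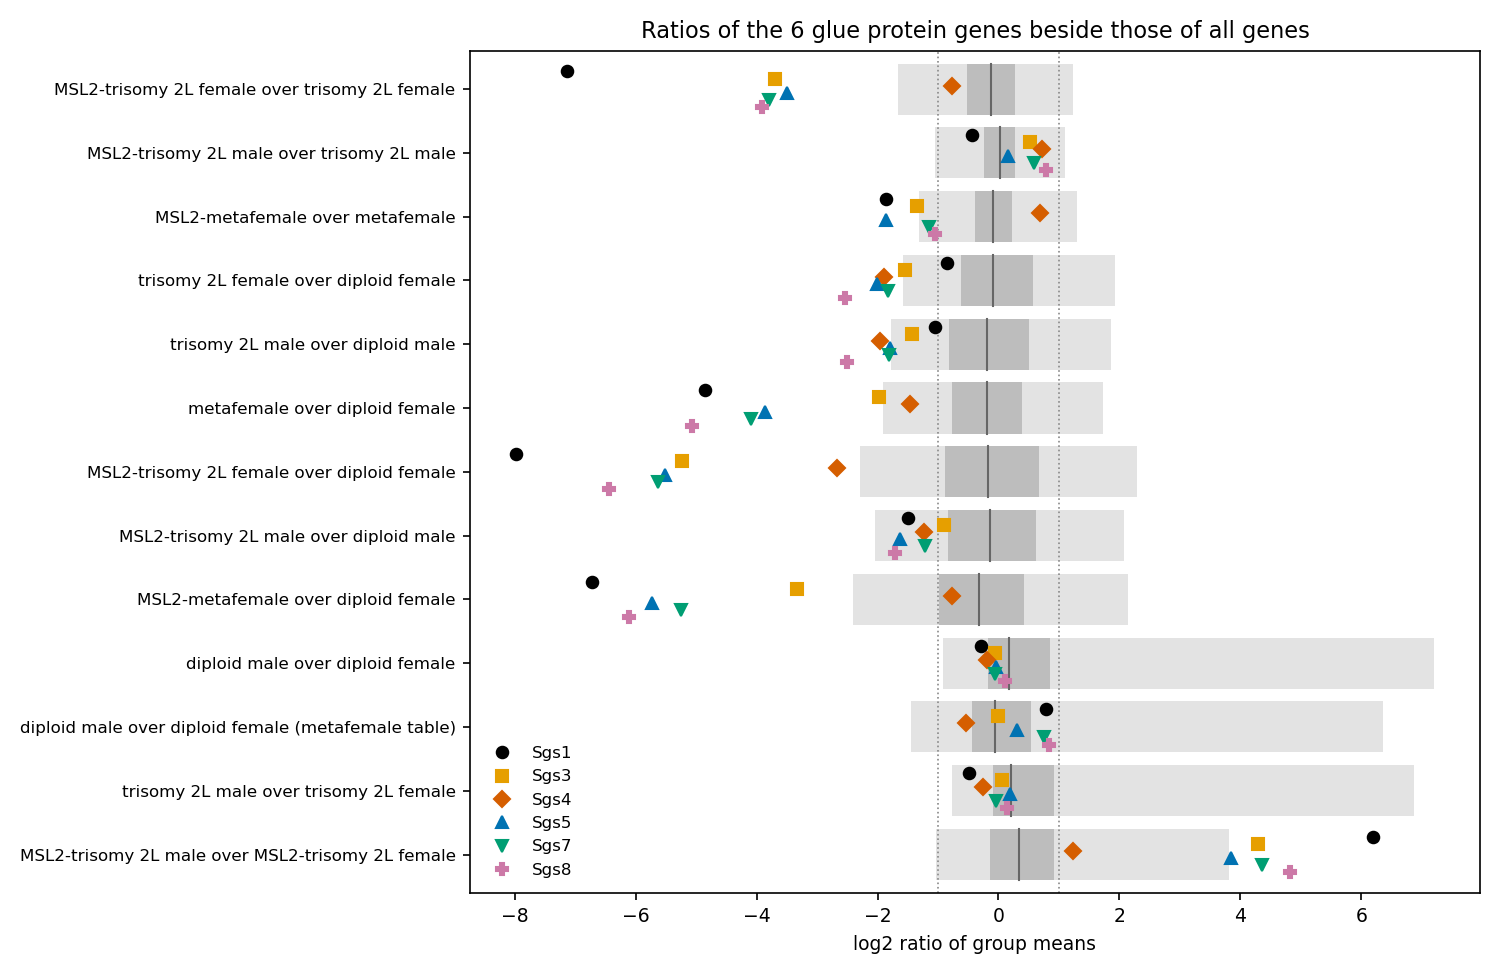
Log2 ratios of group means of the glue protein genes (points) in 13 comparisons, with the range of all genes from the 5th to the 95th percentile (light bars), the middle 50 percent (dark bars) and the median (line), and dotted lines at 2-fold. In MSL2-trisomy 2L females over trisomy 2L females, Sgs1 lies at -7.14 and 4 others between -3.91 and -3.50, whereas the points of the male MSL2 comparison lie between -0.45 and 0.78.

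Aneuploidy without MSL2 was also set against the diploids of the same sex, with the reading of batches given above. Trisomy 2L females had a glue sum of 8029 CPM against 28290 in diploid females, which is 3.52-fold lower, and trisomy 2L males had 8184 CPM against 27341 in diploid males, which is 3.34-fold lower. In females, 5 of the 6 members were at least 2-fold lower, beside 12.3% of 13660 genes. In males all 6 were, beside 19.3% of 15249 genes. Sgs8 had the lowest log2 ratio in both sexes, -2.54 in females and -2.50 in males. Sgs1, the member on the trisomic arm, had the highest, -0.84 in females and -1.05 in males, and the male value was -0.86 with ratios divided by the median of all genes. The median log2 ratio of all genes on arm 2L was 0.23 in females and 0.12 in males.

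In metafemales the glue sum was 3918 CPM against 41161 in diploid females, which is 10.5-fold lower, and all 6 members were at least 2-fold lower, beside 18.1% of 13305 genes. Sgs8 was 33.4-fold lower, Sgs1 29.0-fold, Sgs7 17.1-fold and Sgs5 14.6-fold, while Sgs3 was 3.95-fold and Sgs4 2.76-fold lower. Sgs4 here has 3 gene copies, and the median X gene had a log2 ratio of 0.20 in the same comparison against -1.46 for Sgs4. Marker lists of muscle and of other tissues were also compared between aneuploids without MSL2 and diploids. The midgut, fat body and larval cuticle sums given below were within 2-fold. All 6 body wall muscle genes were at least 2-fold higher in metafemales, with a sum of 16983 CPM against 4353 in diploid females, beside 9.7% of 9279 genes with at least 1 CPM in both means. In trisomy 2L females 3 of the 6 were higher, with a sum of 14756 CPM against 8464 in diploid females, beside 13.1% of such genes, and in trisomy 2L males 4 of the 6, with 16811 CPM against 7032 in diploid males, beside 12.5%. The midgut list summed to 21332 CPM in metafemales against 11647 in diploid females, and to 13645 in trisomy 2L females against 15439. The fat body list summed to 58176 CPM in metafemales against 58356, and to 120274 in trisomy 2L females against 84265. The larval cuticle list summed to 9083 CPM in metafemales against 9394, and to 15109 in trisomy 2L females against 18606. The part of muscle or other tissue content in the lower glue levels was not tested.

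The groups with MSL2 were also compared with the diploids. In MSL2-trisomy 2L females all 6 members were at least 2-fold lower, beside 22.3% of 11988 genes, and the ratios reached 252-fold for Sgs1, 87.0-fold for Sgs8, 49.7-fold for Sgs7, 45.6-fold for Sgs5 and 37.7-fold for Sgs3, against 6.33-fold for Sgs4. In MSL2-metafemales 5 of the 6 were at least 2-fold lower, beside 24.7% of 11689 genes. There Sgs1 was 106-fold, Sgs8 69.03-fold, Sgs5 53.2-fold, Sgs7 38.0-fold and Sgs3 10.1-fold lower, and Sgs4 was 1.71-fold lower. In MSL2-trisomy 2L males 5 of the 6 were at least 2-fold lower than in diploid males, beside 20.9% of 14868 genes, with folds from 1.86 for Sgs3 to 3.29 for Sgs8. These comparisons share their diploid means with those of the aneuploids without MSL2. Sgs3 in the male comparison was near the limit, with a log2 ratio of -0.90 that became -1.004 when the column totals were made equal.

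The sexes differed little outside the MSL2 groups. In diploids of the table of trisomy 2L the male over female log2 ratios ran from -0.29 for Sgs1 to 0.10 for Sgs8, and no member passed 2-fold in either direction, beside 27.0% of 13684 genes. In the table of metafemales the diploid ratios ran from -0.54 for Sgs4 to 0.83 for Sgs8, again with no member past 2-fold, beside 27.6% of 13105 genes. In trisomy 2L without MSL2 they ran from -0.49 for Sgs1 to 0.18 for Sgs5, with no member past 2-fold beside 27.2% of 14713 genes. In contrast, all 6 members were at least 2-fold higher in MSL2-trisomy 2L males than in MSL2-trisomy 2L females, beside 22.8% of 12243 genes. There Sgs1 was 73.3-fold higher, Sgs8 28.4-fold, Sgs7 20.4-fold, Sgs3 19.5-fold and Sgs5 14.4-fold, and Sgs4 was 2.35-fold higher. The Sgs4 log2 ratio of 1.23 became 0.89 with ratios divided by the median of all genes.

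The amount and the make-up of the glue RNA both differed between groups. The 6 genes together took 0.0829% of the column total in MSL2-trisomy 2L females, against 0.875% in trisomy 2L females and 3.18% in diploid females, and 1.15% in MSL2-trisomy 2L males, 0.881% in trisomy 2L males and 3.05% in diploid males. They took 0.197% in MSL2-metafemales, 0.444% in metafemales and 4.42% in diploid females of that table. Sgs4 made up 29.7% of this sum in MSL2-trisomy 2L females, against 4.99% in trisomy 2L females and 5.26% in diploid females. It made up 39.4% in MSL2-metafemales, against 13.0% in metafemales and 3.42% in diploid females. In males of the table of trisomy 2L its share of the sum was 4.98% with MSL2, 4.09% without and 4.75% in diploids. The diploid males of the table of metafemales gave 1.68%. Sgs1 went the other way and made up 0.514% of the sum in MSL2-trisomy 2L females and 7.12% in trisomy 2L females.

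**Figure D3:**
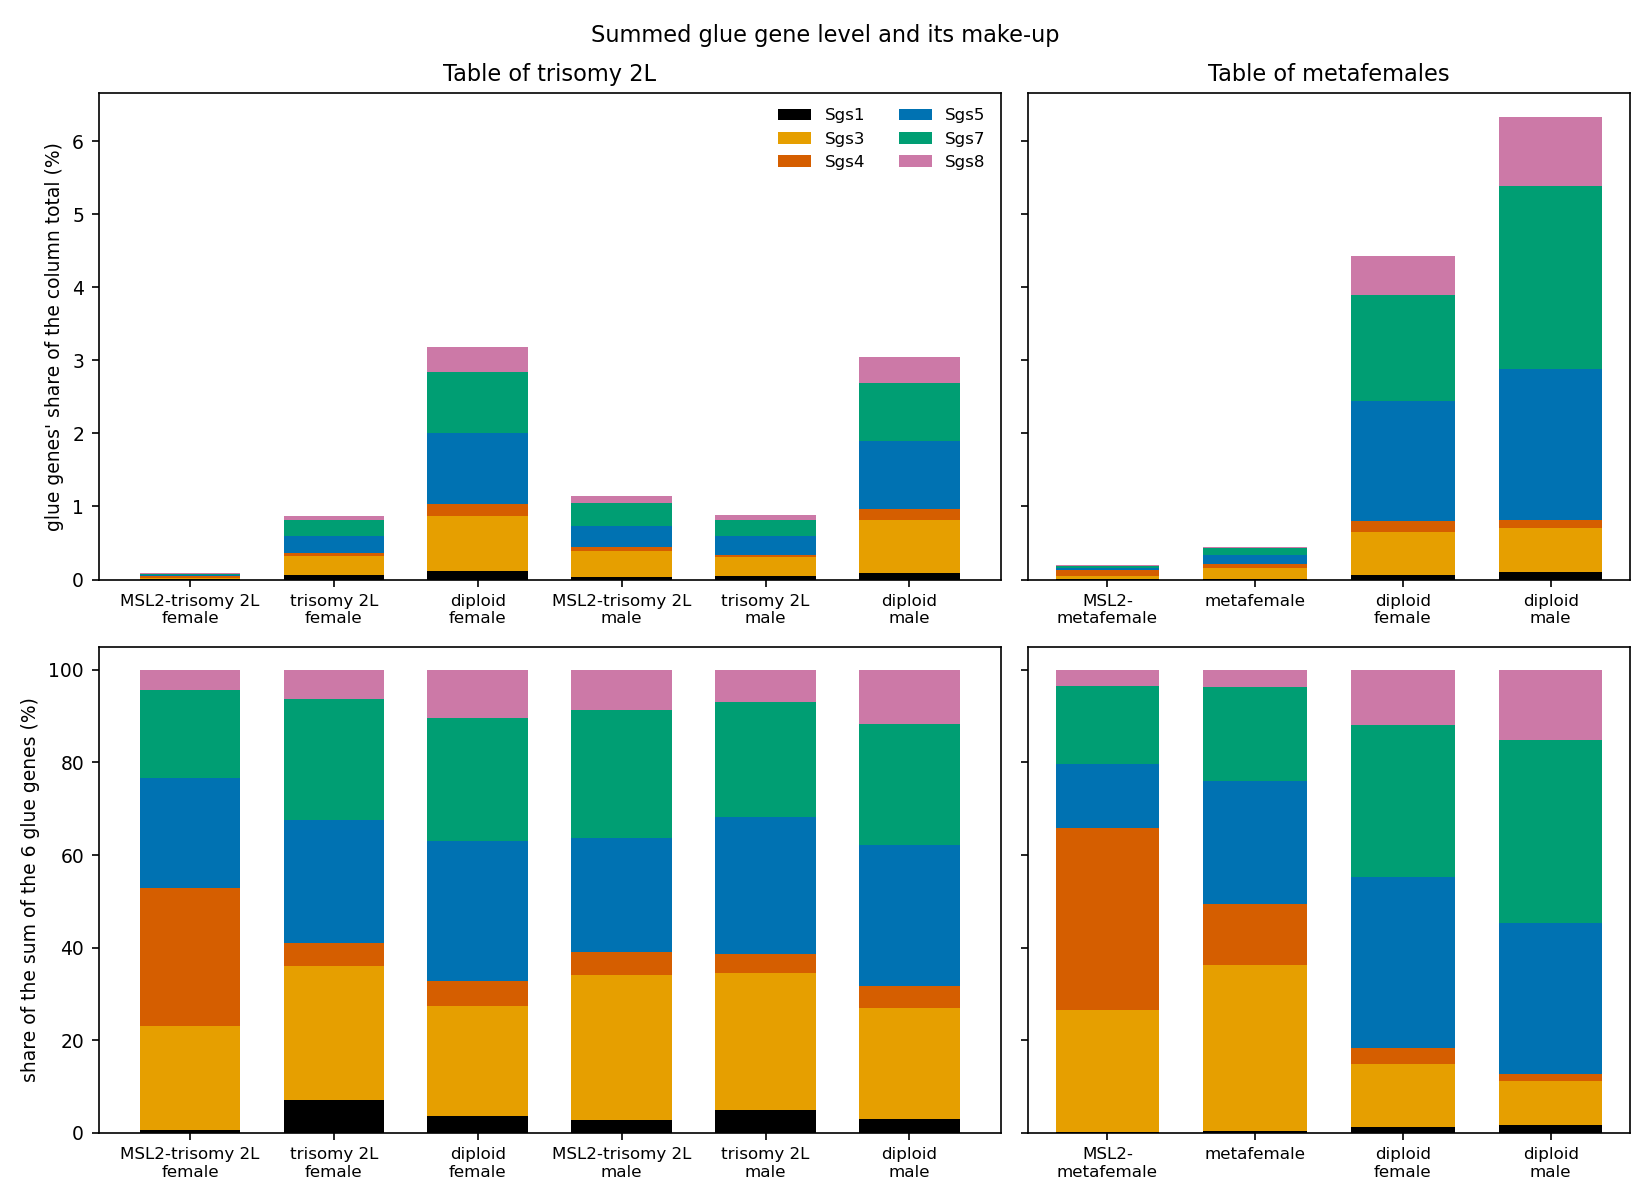
Summed level of the 6 glue protein genes as a percentage of the column total (upper bars) and the share of each gene in that sum (lower bars), for each group mean. The sum is 0.0829% of the total in MSL2-trisomy 2L females and 6.34% in diploid males of the table of metafemales, and Sgs4 makes up 29.7% of the sum in MSL2-trisomy 2L females and 39.4% in MSL2-metafemales.

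Within this 68C cluster the balance of neighbours also differed between groups. The level of Sgs7 was 4.43 times that of Sgs8 in MSL2-trisomy 2L females, against 4.13 times in trisomy 2L females and 2.53 times in diploid females, and 5.02 times in MSL2-metafemales, 5.41 times in metafemales and 2.77 times in diploid females. Sgs8 was thus lower relative to its divergent partner in every aneuploid female mean than in the diploid females, and the male means gave 3.19 with MSL2, 3.63 without and 2.25 in diploids. These are ratios of levels per read and not per length. Reads of this related pair could be shared, as stated above, and diploids and MSL2 groups differed in read type. The part of either in these ratios was not tested. As a description over the 10 means, with each gene centred on its log2 mean within each table, the correlation of Sgs7 with Sgs8 was r = 0.998 and that of Sgs7 with Sgs5 was r = 0.994. The correlations among the 5 members other than Sgs4 were between 0.946 and 0.998, and those of Sgs4 with the others between 0.650 and 0.763. The 10 means share their tables and the diploid batch, so they are not independent points.

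Whole larvae hold many tissues, and fewer salivary gland cells, or less glue RNA per cell, cannot be told apart in these data. Markers of the gland did not move together. The transcription factor fkh, which specifies the salivary gland and activates Sgs genes, was 23.5 CPM in MSL2-trisomy 2L females against 20.1 in trisomy 2L females, and 29.3 in MSL2-metafemales against 34.9 in metafemales. The gland-specific bHLH factor sage, which acts with fkh, was 10.01 CPM in MSL2-trisomy 2L females, against 27.8 in trisomy 2L females and 102 in diploid females, and it was 17.4 in MSL2-metafemales, 25.1 in metafemales and 78.0 in diploid females. The salivary gland prolyl hydroxylase gene PH4alphaSG2 was 30.0 CPM in MSL2-trisomy 2L females against 9.14 in trisomy 2L females, and 22.3 in MSL2-metafemales against 8.29 in metafemales. The gland marker list held these 3, PH4alphaSG1 and CG30463 (Pgant9 in RefSeq). Its sum was 107 CPM in MSL2-trisomy 2L females and 108 in the same trisomy without MSL2. Within these sums, 2 of the 5 genes were at least 2-fold lower with MSL2, sage and CG30463 (7.67 against 31.3 CPM). PH4alphaSG2 was higher, and PH4alphaSG1, at 36.3 against 19.2 CPM, was within 2-fold. Of all genes with at least 1 CPM in both means, 7.57% were lower and 4.12% higher. In MSL2-metafemales the sum was 165 CPM, against 116 in metafemales. There 0 of the 5 genes were lower and 2 higher, beside 4.12% and 5.07% of such genes. Diploid females had higher sums, 199 CPM in the table of trisomy 2L and 221 in that of metafemales. Trisomy 2L males had 117 CPM against 143 in diploid males. Against diploid females, 1 of the 5 genes was at least 2-fold lower and 1 higher in trisomy 2L females. Of all 13660 genes there, 12.3% were lower and 14.5% higher. In metafemales 2 of the 5 were lower and 1 higher, beside 18.1% and 11.6% of all 13305 genes. The part of gland content in the lower glue levels was not tested.

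Of the other intermoult and glue-like genes of the gland, some followed the members with MSL2 in trisomy 2L females and some did not. Eig71Ee, a gene of the 71E puff that is expressed in the gland at the intermoult stage, was 225 CPM in MSL2-trisomy 2L females, against 1537 in trisomy 2L females and 2922 in diploid females, with a log2 MSL2 ratio of -2.77. CG7587 (Sgs5bis in RefSeq), which lies 304 bases from Sgs5, was 22.9 CPM in MSL2-trisomy 2L females and 257 in trisomy 2L females, a log2 ratio of -3.49, and 819 in MSL2-trisomy 2L males against 220 in trisomy 2L males. CG7587 was 7.92 CPM in MSL2-metafemales, 11.9 in metafemales and 450 in diploid females. Eig71Ee was 313 CPM in MSL2-metafemales, 443 in metafemales and 1898 in diploid females. With MSL2 in metafemales both genes thus stayed within 2-fold, with log2 ratios of -0.59 for CG7587 and -0.50 for Eig71Ee. Of the new glue genes of the X, ng2 was at least 2-fold higher with MSL2 in both female comparisons, and ng3 in trisomy 2L females. In metafemales the ng3 log2 ratio of 0.46 was within 2-fold. So were those of ng1, -0.75 in trisomy 2L females, -0.38 in metafemales and -0.76 in trisomy 2L males. The level of ng1 was 37.2 CPM in MSL2-trisomy 2L females against 62.5 in trisomy 2L females, and 95.8 in MSL2-metafemales against 125 in metafemales. The level of ng3 was 2211 CPM in MSL2-trisomy 2L females, against 849 in trisomy 2L females and 336 in diploid females, and it was 1651 in MSL2-metafemales, 1198 in metafemales and 316 in diploid females. For ng2 the log2 MSL2 ratios were 1.43 in trisomy 2L females and 1.12 in metafemales, with the limit that ng1 and ng2 are near-identical and their reads could be shared. Of the 5 measured genes of this list, 2 were at least 2-fold lower and 2 higher in MSL2-trisomy 2L females, and 0 lower and 1 higher in MSL2-metafemales. Among all genes with at least 1 CPM in both means, 7.57% were at least 2-fold lower and 4.12% higher in MSL2-trisomy 2L females. In MSL2-metafemales these shares were 4.12% and 5.07%, and in MSL2-trisomy 2L males 2.7% and 2.78%. The counts of lists and neighbours that follow are to be read beside these shares.

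Genes within 10 kb of a member were then listed, a rule chosen after the values of some of them had been seen. Of 23 such genes, 17 had at least 1 CPM in both trisomy 2L female means, and 4 of these were at least 2-fold lower with MSL2 and 2 higher. The lower ones were CG7587 and CG7606 on either side of Sgs5, and Jon25Biii, a midgut protease gene, and betaggt-I, a prenyltransferase subunit gene, near Sgs1. CG7606, 423 bases from Sgs5, was 18.6 CPM in MSL2-trisomy 2L females and 145 in trisomy 2L females, and 330 in MSL2-trisomy 2L males and 125 in trisomy 2L males. The higher ones were ng2 and ng3, between 8 and 10 kb from Sgs4. Closer to Sgs4, Pig1, a gland gene that is transcribed away from it, was 33.3 CPM in MSL2-trisomy 2L females against 31.0 in trisomy 2L females, and 139 in MSL2-metafemales against 96.1 in metafemales. The gene dnc, whose span holds Sgs4, was 20.2 CPM in MSL2-trisomy 2L females against 14.7 in trisomy 2L females, far below the Sgs4 level. Around Sgs1, hoe2 was 24.8 CPM with MSL2 and 26.8 without in trisomy 2L females, and mRpL24 was 35.7 and 35.2. In the 68C cluster, CG33272 and CG33500, which lie less than 100 bases from Sgs7 and Sgs8, were at most 0.35 CPM in every mean.

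**Figure D4:**
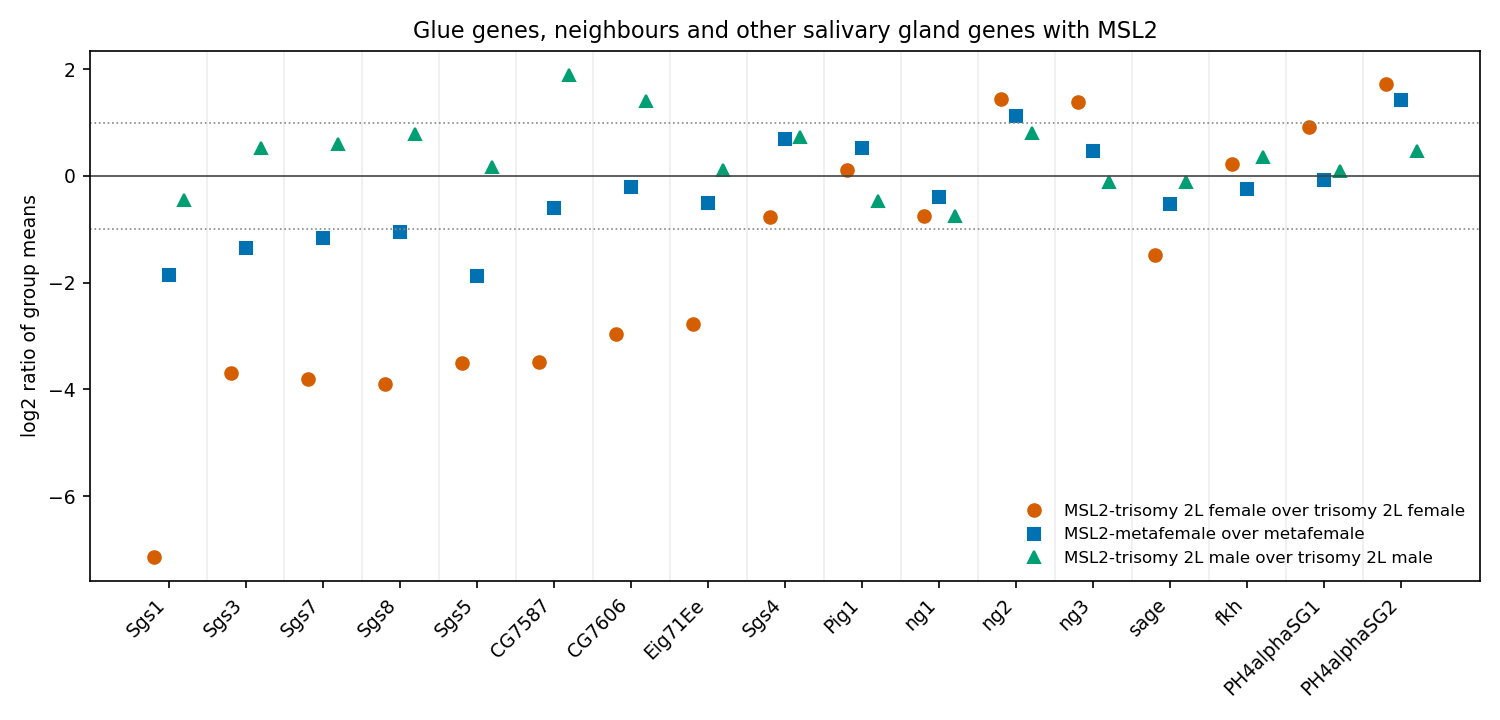
Log2 ratio of each MSL2 group mean to the mean of the same aneuploid without MSL2, for the glue protein genes, genes next to them and other genes of the salivary gland, with dotted lines at 2-fold and 1 symbol per comparison. CG7587 at -3.49 and Eig71Ee at -2.77 lie with the lower members in trisomy 2L females, whereas ng2 at 1.43 and PH4alphaSG2 at 1.72 lie above 0.

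The machinery that modifies and secretes glue did not follow the members as a list. Of 13 genes of glycosylation, granules and secretion with at least 1 CPM in both means, 1 was at least 2-fold lower and 1 higher in MSL2-trisomy 2L females, and 1 lower and 2 higher in MSL2-metafemales, with median log2 ratios of 0.06 and -0.09. CG30463, a mucin-type O-glycosyltransferase gene that acts in gland granules, was 7.67 CPM in MSL2-trisomy 2L females against 31.3 in trisomy 2L females, but 73.0 in MSL2-metafemales against 23.3 in metafemales. The related pgant5 was 10.5 CPM in MSL2-metafemales against 25.1 in metafemales. Sec23, of the coat that carries cargo out of the endoplasmic reticulum, was 222 CPM in MSL2-trisomy 2L females and 192 in trisomy 2L females. Of the 6 gland transcription factors with at least 1 CPM in both trisomy 2L female means, sage was the single one past 2-fold with MSL2, and of 7 in metafemales none was.

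Other genes that change during the third instar were read beside the glue genes. In MSL2-trisomy 2L females, 3 of 13 ecdysone receptor and response genes were at least 2-fold lower and none higher, with a median log2 ratio of -0.56. The early gene br, a zinc finger factor needed for glue expression and for metamorphosis, was 64.4 CPM in MSL2-trisomy 2L females against 177 in trisomy 2L females, ImpE3 was 4.32 against 12.9 and Hr3 was 1.66 against 3.57. Eip78C was 0.933 CPM against 23.1, and is named after its values were seen since it lay below 1 CPM. In trisomy 2L males with MSL2, 4 of 14 genes of the list were higher and none lower, with a median of 0.64, beside 2.78% of all such genes higher. In metafemales with MSL2, 2 of 14 were higher, ImpE2 with 10.7 against 4.14 CPM and Hr39 with 30.8 against 14.1, and none was lower. Without MSL2 the list was also set against diploids, and the counts of both trisomy 2L groups were near the shares of all genes. Trisomy 2L females had 0 of 13 genes at least 2-fold lower and 1 higher, with a median of 0.21. Beside them, 12.3% of all 13660 genes were lower and 13.1% of all genes with at least 1 CPM in both means were higher. Trisomy 2L males had 3 of 13 lower and 0 higher, with a median of -0.25, beside 19.3% of all 15249 genes lower. Against diploid females, metafemales had 10 of 14 genes at least 2-fold lower and none higher, beside 16% of all such genes lower. There ImpE2 was 4.14 CPM in metafemales against 390 in diploid females.

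The late puff genes of 71E, which come on around pupariation, were low throughout. Of the 8 found, none had a value in both trisomy 2L female means, and the highest mean of any of them was 6.49 CPM, that of Eig71Ea in diploid males of the table of metafemales. Among 6 fat body genes that rise in the third instar, Lsp2, a storage protein gene of the late instar, was 2178 CPM in MSL2-trisomy 2L females against 15419 in trisomy 2L females, and Fbp1, the receptor for storage protein uptake, was 5208 against 13174. The other storage protein genes gave another picture, since Lsp1beta was 69958 CPM in MSL2-trisomy 2L females against 48487 in trisomy 2L females. In MSL2-metafemales none of the 6 was past 2-fold, and Lsp2, at 3599 CPM against 7189 in metafemales, was just short of it. The part of larval stage in the glue gene differences was not tested, since the labels give no age within the instar.

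Markers of other tissues were also summed. In MSL2-trisomy 2L females, the 7 midgut genes found summed to 6668 CPM against 13645 in trisomy 2L females, with 4 of 7 at least 2-fold lower, and the 6 body wall muscle genes to 24177 against 14756. The fat body list summed to 125731 CPM against 120274, and the larval cuticle list to 11638 against 15109. In MSL2-metafemales the midgut sum was 26472 CPM against 21332 in metafemales, and the muscle sum was 18982 against 16983. The testis list was at most 2.02 CPM in the female means and between 199 and 450 CPM in the male means. The part of tissue make-up in the glue gene differences was not tested.

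The genes whose pattern over the 10 means was most like that of the members were looked for among the 6896 genes whose mean over all columns reached 10 CPM. The measure was Pearson's r to the mean of the members' log2 profiles, centred within each table. The 5 highest genes other than members were Eig71Ee (r = 0.993), CG42834 (0.993), CG4409 (0.991), CG42460 (0.990) and CG1218 (0.990). CG42834 was 4.26 CPM in MSL2-trisomy 2L females, against 85.5 in trisomy 2L females and 202 in diploid females, and CG42460 was 14.1, 117 and 286 in these groups. CG4409 and CG1218 were lower in level and in range, with 5.89, 14.2 and 21.2 CPM for CG4409 and 8.31, 16.8 and 24.1 CPM for CG1218. Of the members, Sgs4 had the lowest likeness to the mean profile (r = 0.757), below CG7606 (0.934) and sage (0.910), while ng3 gave r = -0.934.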

How the data were processed

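RNA came from whole larvae in the third instar. The authors mapped reads with HISAT2, assembled and counted transcripts with StringTie, divided counts by mapped reads (CPM), adjusted them for batch with ComBat on a log scale, removed values not above 0 and averaged replicates, so the deposited values are scores in batch-adjusted CPM, 1 mean per group. Depth behind each mean is unknown. The authors' ratio columns of group means were not used.

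Rows were summed per gene name. Log2 ratios of means were computed in 13 comparisons, over all genes with both means, without a test, and a call meant at least 2-fold. The arithmetic of gene sums and ratios was tested on simulated data, which gives no error rate for the calls. List genes are named if past 2-fold with MSL2 in trisomy 2L females or metafemales, at 1 CPM or more in both means, at most 4 a list, beside the 5 genes of highest likeness. Genes of the lists outside this rule (fkh, PH4alphaSG1, ng1, Sec23, Eip78C, Eig71Ea and Lsp1beta) and the genes near members were named after their values were seen. Members and lists were chosen with earlier results of these data known. Symbols were matched through RefSeq. Promoter motifs were not described, since no sequence was used here. Alternatives were other scalings, a pseudocount, row choice, a level filter and, for likeness, Spearman's rho. Python 3.11.15, numpy 2.4.6, pandas 2.3.3 and matplotlib 3.10.9 were used.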

Additional observations from a re-analysis of the deposited data

Results flagged for a closer look

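The MSL2 ratio had opposite signs in trisomy 2L males and females for 5 members, although no male ratio passed the 2-fold limit. No MSL2 ratio of Sgs4 passed it in either sex or in metafemales. Sgs1 is not among these 5, since its log2 ratio was below 0 in both sexes, -0.45 in males and -7.14 in females. The log2 ratio of males minus that of females was 4.69 for Sgs8, 4.40 for Sgs7, 4.22 for Sgs3, 3.66 for Sgs5 and 1.49 for Sgs4. For Sgs4 it also had opposite signs in metafemales and trisomy 2L females, and the metafemale value minus the trisomy 2L female value was 1.46. These differences were not tested, since each rests on 1 mean per group.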

How the results depend on the processing

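No paired analysis was possible because the tables give 1 mean per group, which also left no replicate to leave out, and the planned motif description was not run. Of 390 log2 ratios of members under other settings, 386 stayed on their side of the 2-fold limit and none changed the direction of a call. The 4 others were, with ratios divided by the median of all genes, -0.95 for Sgs8 in MSL2-metafemales over metafemales, -0.86 for Sgs1 in trisomy 2L males over diploid males and 0.89 for Sgs4 in MSL2-trisomy 2L males over females, and, with equal column totals, -1.004 for Sgs3 in MSL2-trisomy 2L males over diploid males. All 65 medians and all 65 counts of members under other settings kept their call, with counts within 1.5 times. The median ran from -3.81 to -3.63 in MSL2-trisomy 2L females over trisomy 2L females and from -1.52 to -1.16 in MSL2-metafemales over metafemales. The share of all genes past the limit depended more on the setting. Among genes of at least 10 CPM, 6.73% were 2-fold lower in MSL2-trisomy 2L females over trisomy 2L females, 3.33% in MSL2-metafemales over metafemales and 6.06% in trisomy 2L females over diploid females. In either direction it was 4.51% in MSL2-trisomy 2L males over trisomy 2L males, 13.1% in trisomy 2L males over females and 17.4% in diploid males over females of the table of metafemales. With 1 CPM added to each mean, 10 of these 13 shares were over 1.5 times smaller, among them 4.86%, 3.15% and 3.75% for the first 3. With equal column totals, 12.0% of genes were lower in MSL2-metafemales over metafemales, and the higher genes were 30.0% of the calls instead of 48.1%. With ratios divided by the median of all genes, the higher genes were 54.6% instead of 41.8% of the calls in trisomy 2L males over diploid males, 52.3% instead of 39.0% in metafemales and 53.8% instead of 36.8% in MSL2-metafemales over diploid females, and 63.2% instead of 81.3% in MSL2-trisomy 2L males over females. By Spearman's rho, 1 of the 5 genes most like the members was among the 5 highest, and over the 6 aneuploid means alone, a setting chosen after seeing the data, 0 were, although their r stayed at 0.983 or above.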
